A study of Mus musculus with 6 samples.

Results

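Microglia identity and activation genes were followed in retina of Nxnl2 knockout and wild-type mice. The set holds 9 genes, and its members are all probe sets whose platform annotation names exactly 1 of these genes, which gave 13 of the 45037 probe sets other than controls. Total RNA of retinas freed of the pigment epithelium, from post-natal day 40 animals of the BALB/c AJ strain, was hybridised to 1-colour Affymetrix arrays. For Nxnl2, 3 arrays carry the genotype label ko/ko and 3 carry wt/wt. They are called KO1, KO2 and KO3 and WT1 to WT3 here, after their replicate numbers. Nxnl2 encodes a thioredoxin-like protein of photoreceptors, rod-derived cone viability factor 2. The labels do not say how the allele was made, how many animals a sample holds or whether replicates came from separate animals, so a p-value covers the variation among these 6 RNA samples alone, and that variation may be technical. The question put to these genes is whether loss of Nxnl2 goes along with a change in retinal microglia transcripts.

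Microglia are the resident macrophages of the retina, where they sit mainly in the synaptic layers and send out branches that survey the tissue. Their survival depends on the receptor CSF1R, and they sense neurons through the fractalkine receptor CX3CR1 and the ADP receptor P2RY12. When photoreceptors are damaged they retract their branches, move toward the injury and take up debris, with signalling through TREM2 and its adaptor TYROBP and with more lysosomal protein such as CD68. P2RY12 and TMEM119 are widely used to tell microglia from other macrophages, whereas AIF1 (IBA1), CSF1R, TYROBP, CD68 and cathepsin S are shared with macrophages elsewhere.

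The arrays labelled ko/ko were not alike, which bears on every value that follows. The brighter Nxnl2 probe set read 3.78 in KO1, 3.73 in KO2 and 9.21 in the array labelled KO3, against 11.38, 11.45 and 11.42 in wild type (all levels are log2 RMA values). The mean level of the 9 measured rod markers was 12.99 in KO1, 13.07 in KO2 and 3.98 in the array labelled KO3, against 13.10, 13.13 and 13.18 in wild type. The mean level of the 10 nasal mucosa markers was 4.90, 4.85 and 11.39 in the same 3 arrays, against 4.78, 4.73 and 4.87 in wild type. Nxnl2 and these markers go against the label of that array, so results are given with it and without it, as a comparison of 6 arrays and one of 5. Its correlation with the other arrays over probe sets was 0.848 to 0.853, while the 10 pairs among the other 5 arrays lay between 0.994 and 0.996.

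Promoter sequence shows one feature that the choice of the members did not use. PU.1, the product of Spi1, is the transcription factor that myeloid cells require, and it binds purine-rich sites around GGAA. The letters GAGGAA, searched on both strands (TTCCTC on the opposite strand) in the 250 bases before the RefSeq start, were found in 4 of the 6 members with an entry in the promoter table, namely Ctss, Cd68, Aif1 and Trem2. They occur in 23.3% of all 32851 promoters of that table. No match was found in P2ry12 or Cx3cr1, which says only that these letters are not in this window. A match is a description and not evidence of binding. The 3 sequences below belong to the member that was lowest in the array labelled KO3 (P2ry12), a member that was high there (Cd68) and the member that stood highest above wild type in KO1 (Ctss). They are RefSeq sequence of assembly GRCm38.p6, which is of another strain than the mice used, written 5′ to 3′ on the gene's strand with GAGGAA in capitals. The P2ry12 stretch lies at chr3:59262986-59263235 on the minus strand, the Cd68 stretch at chr11:69666171-69666420 on the minus strand and the Ctss stretch at chr3:95526536-95526785 on the plus strand.
P2ry12: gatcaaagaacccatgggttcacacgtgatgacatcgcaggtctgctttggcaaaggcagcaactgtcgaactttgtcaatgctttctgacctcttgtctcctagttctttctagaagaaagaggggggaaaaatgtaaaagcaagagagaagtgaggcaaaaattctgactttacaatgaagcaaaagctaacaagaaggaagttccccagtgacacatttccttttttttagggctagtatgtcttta
Cd68: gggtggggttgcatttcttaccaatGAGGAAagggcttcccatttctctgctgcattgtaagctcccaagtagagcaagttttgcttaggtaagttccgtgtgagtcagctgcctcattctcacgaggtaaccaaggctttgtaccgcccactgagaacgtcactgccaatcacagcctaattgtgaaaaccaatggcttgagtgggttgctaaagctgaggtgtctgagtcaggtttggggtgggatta
Ctss: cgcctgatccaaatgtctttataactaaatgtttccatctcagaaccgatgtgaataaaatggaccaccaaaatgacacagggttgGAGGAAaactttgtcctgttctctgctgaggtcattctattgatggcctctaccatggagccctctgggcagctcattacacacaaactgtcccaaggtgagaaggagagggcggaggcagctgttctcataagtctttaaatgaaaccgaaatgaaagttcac
The match begins 225 bases before the start in Cd68 and 164 bases before it in Ctss.

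How far each gene stood above background decides what its probe sets can show. Bacillus control probe sets, which match no mouse transcript, reached at most 4.13 to 4.60 per array, and the highest of them in each array is used here as a background mark. The single Aif1 probe set lay below that mark in all 5 arrays other than the array labelled KO3, so these 5 arrays give no usable level for IBA1. The dimmer Cx3cr1 probe set lay below it in all 6 arrays, and the dimmer Trem2 probe set lay below it in 2 of the 6. P2ry12 was above it in all 5 arrays other than the array labelled KO3. Tmem119, Cd68, Tyrobp, Ctss, all 3 Csf1r probe sets and the brighter probe sets of Cx3cr1 and Trem2 were above it in every array. In bulk tissue, fewer cells of a type and less RNA per cell cannot be told apart.

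**Figure D1:**
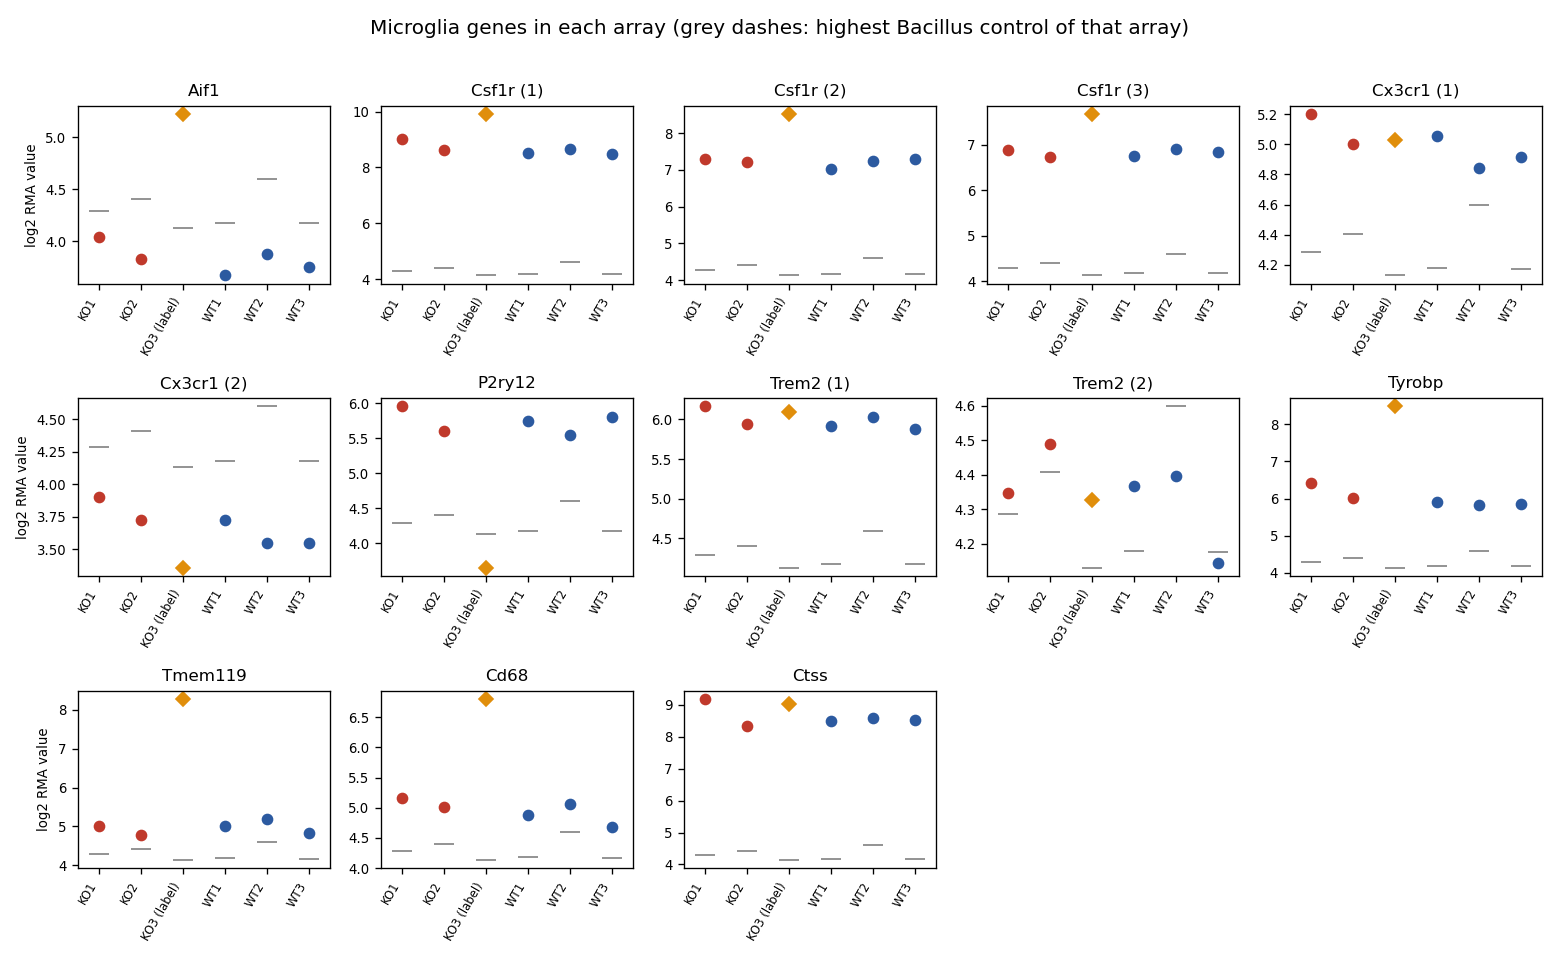
Log2 RMA value (vertical axes, a separate range in each panel) of the 13 microglia probe sets in each of the 6 arrays, with 1 point per array and several probe sets of a gene numbered from the brightest. Grey dashes mark the highest Bacillus control of each array; the orange diamond, the array labelled KO3, lies far above the others for Tmem119 (8.28) and Tyrobp (8.48) and below them for P2ry12 (3.65).

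Without the array labelled KO3, no microglia gene passed the test between knockout and wild type, and the 13 log2 changes lay between -0.12 and 0.35. By limma, with Benjamini-Hochberg adjustment over all 45037 probe sets, 0 of the 13 probe sets passed an adjusted p of 0.05, where 0.0111% of all probe sets did. At an unadjusted p under 0.05 stood 1 of the 13 (Tyrobp), where 3.05% of all probe sets did. That count was 0 without KO1, 3 without KO2, 0 without WT2 and 0 without WT3. The log2 change lay above 0 for 11 of the 13, where 51.4% of all probe sets did. At gene level, with the brightest probe set standing for each gene, the 9 genes had a median log2 change of 0.17, where all 18193 genes had one of 0.00 and the central 90% of them lay between -0.19 and 0.20. The middle gene of the 9 was Aif1, whose probe set is at background, so the median was also taken over the other 8 genes, a choice made after seeing the data, and was 0.19. Over those 8 genes it was 0.03 without KO1 and 0.27 without KO2, so it rests mainly on 1 array. Lone arrays of a group in such a fit are assumed to vary like the wild type.

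Among the receptors, Csf1r carries the survival signal of CSF1 and IL34. Its brightest probe set read 9.03 and 8.64 in KO1 and KO2, against 8.52, 8.65 and 8.49 in wild type. KO1 was thus the highest of the 5 arrays, while KO2 lay within the wild-type values. The log2 change was 0.28 (SE 0.13, 95% interval -0.03 to 0.59, limma adjusted p = 1.0). The other Csf1r probe sets stood at 0.07 and -0.02, so the probe sets of this gene did not show 1 common change.

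Cx3cr1 is the receptor for the fractalkine that neurons display. Its brighter probe set read 5.20 and 5.0 in KO1 and KO2, against 5.05, 4.84 and 4.91 in wild type. The groups overlapped, with a log2 change of 0.16 (95% interval -0.10 to 0.43, limma adjusted p = 1.0), and the dimmer one, at background, stood at 0.21.

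P2ry12 detects nucleotides released by injured cells and is lost from microglia as they activate. It read 5.95 and 5.60 in KO1 and KO2, against 5.75, 5.54 and 5.80 in wild type. Knockout values lay on both sides of the wild-type median, and the log2 change was 0.08 (95% interval -0.24 to 0.40, limma adjusted p = 1.0).

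Trem2 is a lipid-sensing receptor of phagocytes, and Tyrobp (DAP12) is the membrane adaptor that passes its signal on. The brighter Trem2 probe set read 6.16 and 5.94 in KO1 and KO2, against 5.92, 6.03 and 5.87 in wild type. Its log2 change was 0.11 (95% interval -0.14 to 0.37, limma adjusted p = 1.0), and the dimmer one stood at 0.12. Tyrobp read 6.41 and 6.01 in KO1 and KO2, against 5.91, 5.82 and 5.85 in wild type. It was the only member whose groups did not overlap in the 5 arrays, and 8.40% of all probe sets were likewise higher in both knockout arrays than in every wild-type array. Its log2 change of 0.35 was the largest of the 13 (SE 0.13, 95% interval 0.05 to 0.65, unadjusted p = 0.0285), and it did not pass (limma adjusted p = 1.0). Without KO1 it was 0.15, and without KO2 it was 0.55.

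Tmem119, a membrane protein that marks resident microglia in the nervous system and is also made by bone-forming cells, was the only member gene whose brightest probe set stood below 0. It read 5.02 and 4.77 in KO1 and KO2, against 5.02, 5.19 and 4.84 in wild type. Its log2 change was -0.12 (95% interval -0.43 to 0.19, limma adjusted p = 1.0). The groups overlapped, with KO2 the lowest of the 5 arrays.

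The lysosomal members were Cd68, a membrane glycoprotein of phagocyte lysosomes, and Ctss, the cysteine protease cathepsin S. Cd68 read 5.16 and 5.01 in KO1 and KO2, against 4.88, 5.07 and 4.68 in wild type, with a log2 change of 0.21 (95% interval -0.09 to 0.52, limma adjusted p = 1.0). Ctss read 9.19 and 8.35 in KO1 and KO2, against 8.50, 8.59 and 8.52 in wild type. KO1 was the highest and KO2 the lowest of the 5 arrays, so the log2 change of 0.23 (SE 0.21, 95% interval -0.25 to 0.72) stands between values of opposite sign. Without KO1 it was -0.19, and without KO2 it was 0.65. Aif1, an actin-bundling protein of microglial ruffles, read 4.04 and 3.83 in KO1 and KO2, against 3.67, 3.87 and 3.75 in wild type, all at background.

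**Figure D2:**
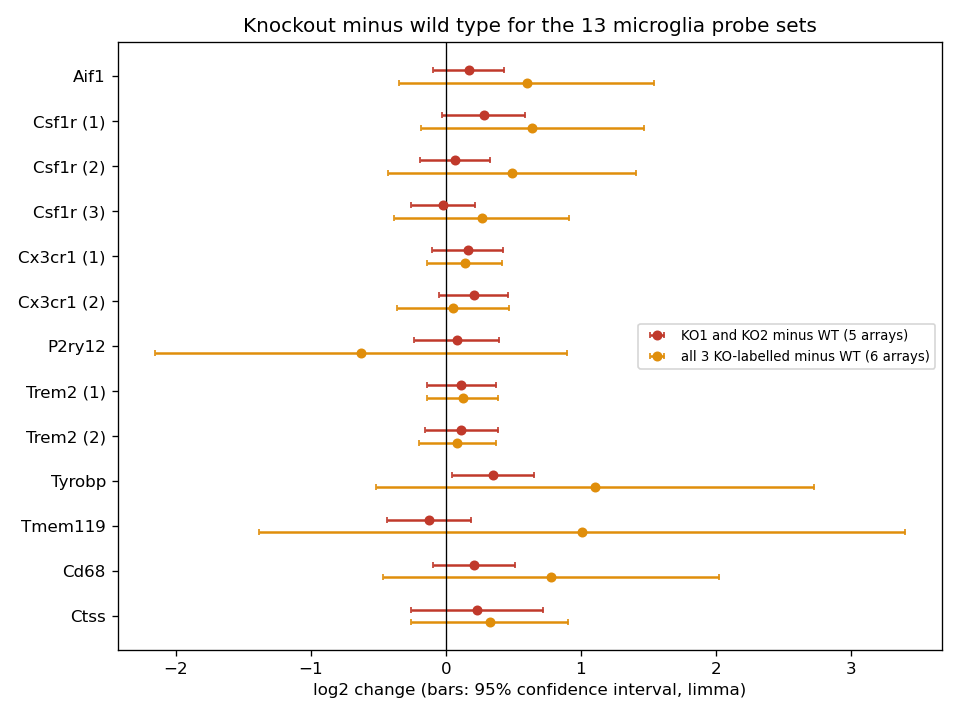
Log2 change (horizontal axis, knockout minus wild type) of the 13 microglia probe sets with its 95% confidence interval from limma. Red points use KO1 and KO2 against 3 wild-type arrays and orange points use all 3 arrays labelled knockout; of the 26 intervals drawn, 1 leaves out 0, that of Tyrobp in the 5 arrays (0.05 to 0.65).

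The 2 knockout arrays that fit their label differed from each other in these genes. In KO1, 10 of the 13 probe sets lay above the highest wild-type array, where 23.6% of all probe sets did, and 0 lay below the lowest, where 26.2% of all did. In KO2, 2 of the 13 lay above the highest wild-type array, where 27.6% of all probe sets did, and 3 lay below the lowest, where 22.7% of all did. Over the 8 genes other than Aif1, the median difference from the wild-type mean was 0.27 in KO1 and 0.03 in KO2, while single wild-type arrays lay between -0.04 and 0.07. With Aif1, which is then the middle gene in KO1 and KO2, it was 0.28 and 0.06. Over all genes the medians were -0.01 and 0.02 in the same 2 arrays. In KO1 the differences ran over the 13 probe sets up to 0.65 for Ctss, followed by 0.55 for Tyrobp and 0.47 for the brightest Csf1r probe set, and Tmem119 stood at 0.00. All 9 genes were higher in KO1 than in KO2, as were 39.8% of all genes. These are values of single arrays, with no test. Each wild-type array is part of the mean it is set against, and KO1 and KO2 are not, so their differences are not like for like.

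Genes of the same pathways, from lists chosen with earlier results of these data known, were set beside the members at gene level, and none of their genes passed in the 5 arrays by limma, where 0.0110% of all genes did (3.45% at an unadjusted p under 0.05). Over all genes 51.9% lay above 0. Of the 7 measured CSF1R ligands and myeloid transcription factors, 4 lay above 0, with a median log2 change of 0.07, and 0 had an unadjusted p under 0.05. Spi1, which encodes PU.1, read 5.34 and 5.86 in KO1 and KO2, against 5.41, 5.53 and 5.38 in wild type. Irf8, its partner factor, stood at 0.19 (SE 0.10). Of the 10 TREM2 and TYROBP partners, 4 lay above 0 (median -0.03) and 2 had an unadjusted p under 0.05, both with knockout higher. These were Clu, a lipid-carrying chaperone that Müller glia also make (0.28, SE 0.10), and Clec5a, a lectin that signals through TYROBP (0.34, SE 0.09), which was at background in the 5 arrays. Among 8 purine and fractalkine partners, 6 lay above 0 (median 0.06), and 1 had an unadjusted p under 0.05, the UDP receptor gene P2ry6 (0.36, SE 0.12), which was at background in the 5 arrays. Cx3cl1, the fractalkine gene, read 8.48 and 8.37 in KO1 and KO2, against 8.42, 8.51 and 8.83 in wild type.

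Of 22 other homeostatic microglia genes, 14 lay above 0 (median 0.04), and 2 had an unadjusted p under 0.05, both complement C1q chains. C1qb read 7.23 and 7.13 in KO1 and KO2, against 6.50, 6.73 and 6.80 in wild type. Its log2 change was 0.50 with an SE of 0.11 and did not pass (adjusted p = 1.0 over genes by limma). C1qc stood at 0.48 (SE 0.18), with 6.46 and 5.83 in KO1 and KO2 against 5.78, 5.77 and 5.44 in wild type, and C1qa at 0.41 (SE 0.21). Both arrays were thus high for C1qb, whereas C1qa read 7.87 in KO1 and 7.03 in KO2, the second within the wild-type range of 6.90 to 7.13.

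Disease-associated microglia genes, which microglia switch on around damaged neurons, had 10 of 18 above 0 and a median of 0.03, and 1 had an unadjusted p under 0.05. This was Lyz2, the lysozyme of phagocytes, which read 6.06 and 5.78 in KO1 and KO2, against 5.64, 5.67 and 5.62 in wild type (0.28, SE 0.11, limma adjusted p = 1.0). Of 13 lysosome genes, 10 lay above 0 (median 0.10), and 12 were higher in KO1 than in KO2. Grn, the lysosomal regulator progranulin, was the 1 of them with an unadjusted p under 0.05 (0.27, SE 0.10) and read 9.49 and 9.27 in KO1 and KO2, against 9.16, 9.16 and 9.02 in wild type. Ctsc, a cathepsin that activates serine proteases of leukocytes, read 8.33 and 8.03, against 7.81, 8.08 and 7.81 in wild type. In KO1 alone the median difference from the wild-type mean was 0.08 for other homeostatic genes, 0.02 for disease-associated genes and 0.14 for lysosome genes. For the CSF1R, TREM2 and purine lists above it was -0.05, -0.08 and 0.12.

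Markers of other cells were recorded beside the difference in KO1. Among 10 Müller glia markers, 9 were higher in KO1 than in KO2, and 10 of the 12 reactive glia genes were. Over all genes 39.8% were. The Müller glia differences were small, with a median from the wild-type mean of 0.06 in KO1 and -0.01 in KO2. In the 5 arrays, 5 of these markers had a log2 change above 0 and 5 below. Of 12 reactive glia genes, 10 lay above the highest wild-type array in KO1 and 6 in KO2, where 22.3% and 31.3% of all genes did, and 0 passed by limma in the 5 arrays (4 at an unadjusted p under 0.05). Their mean level was 6.66 and 5.99 in these arrays, against 5.83, 5.83 and 5.80 in wild type. Edn2, the endothelin of stressed photoreceptors, is in this list and raises that mean in KO1. It read 8.73 and 5.06, against 4.17, 4.86 and 4.61 in wild type. The list median of the difference from the wild-type mean was 0.61 in KO1 and 0.09 in KO2. Of 13 macrophage and monocyte markers, 1 lay above the highest wild-type array in KO1 and 4 in KO2. Their mean level was 4.82 and 4.84, against 4.79, 4.88 and 4.85 in wild type, and 5 of them (Mrc1, Cd163, Pf4, F13a1 and Cbr2) were below the background mark in all 5 arrays. The 9 measured lymphocyte markers had mean levels of 4.54 and 4.64 in the same arrays, against 4.63, 4.53 and 4.58, and 3 of them (Cd3g, Cd79b and Ms4a1) were below the mark. For 9 neutrophil and mast cell markers the levels were 3.77 and 3.96, against 3.82, 3.78 and 3.78, with 6 of them below the mark. The part of reactive glia in the microglia values was not tested.

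**Figure D3:**
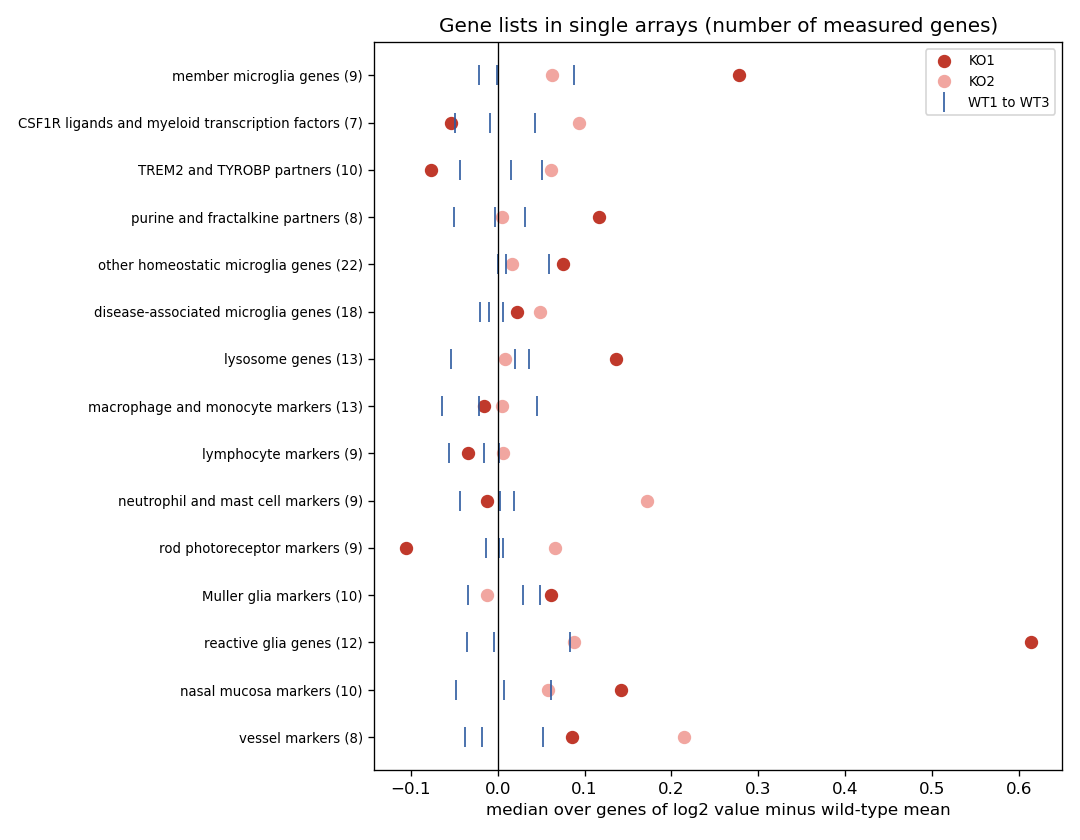
Median over the genes of each list (horizontal axis) of the log2 value minus the wild-type mean, for KO1 (dark red), KO2 (light red) and the 3 wild-type arrays (blue bars); the number of measured genes follows each name. The 9 microglia genes, with Aif1 included, stand at 0.28 in KO1 and 0.06 in KO2, and reactive glia genes at 0.61 and 0.09. Wild-type arrays are part of the mean they are set against, and KO1 and KO2 are not.

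In the array labelled KO3 part of the microglia probe sets stood well above wild type. Of the 13 probe sets, 6 lay over 1 log2 unit above the wild-type mean, where 12.0% of all probe sets did, and 1 (P2ry12) lay as far below, where 11.1% did. Tmem119 read 8.28 there, against 5.02, 5.19 and 4.84 in wild type, a 9.60-fold difference. Tyrobp read 8.48, against 5.91, 5.82 and 5.85 in wild type (6.16-fold), and Cd68 read 6.80, against 4.88, 5.07 and 4.68 in wild type (3.80-fold). The Csf1r probe sets read 9.91, 8.52 and 7.67 from the brightest to the dimmest, which is 2.57-fold, 2.51-fold and 1.79-fold over wild type, so all 3 were higher. Aif1 read 5.23, above the background mark, and was at least 1.88-fold higher than in wild type when the mean of the 3 wild-type marks is used in place of its level there.

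P2ry12 lay below the background mark in that array. It read 3.65 there, against 5.75, 5.54 and 5.80 in wild type, and was at least 2.96-fold lower when the mark is used in its place. Cx3cr1 and Trem2 stood near their wild-type values: the brighter Cx3cr1 probe set read 5.03 (0.09 from the wild-type mean) and the brighter Trem2 probe set 6.09 (0.15 from it). Ctss read 9.04, against 8.50, 8.59 and 8.52 in wild type, and lay below KO1. No test was run on this array alone.

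Other myeloid markers were recorded in the same array. Of 13 macrophage and monocyte markers, 9 lay over 1 log2 unit above the wild-type mean, where 15.8% of all genes did, and their mean level was 7.07, against 4.79, 4.88 and 4.85 in wild type. Cd74, the invariant chain of antigen-presenting cells, read 9.35, against 5.55, 5.57 and 5.51 in wild type, and F13a1, a factor of tissue macrophages, read 7.52, against 3.66, 3.76 and 3.75. Cbr2, a carbonyl reductase abundant in airway epithelium as well as in some macrophages, read 13.55, against 3.86, 3.96 and 3.79 in wild type, all at background. Lyve1, shared with lymphatic vessels, read 4.11, below the background mark, against 7.43, 7.47 and 7.66 in wild type.

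Neutrophil and mast cell markers averaged 8.17 in that array, against 3.82, 3.78 and 3.78 in wild type, with 6 of 9 over 1 log2 unit higher. Among them S100a8, a calcium-binding protein of neutrophils, read 10.99, and Ltf, lactoferrin of neutrophil granules and also of glands, read 13.15. Lymphocyte markers averaged 4.95, with 1 of 9 as far above wild type (Cd79b, a chain of the B-cell receptor, at 5.89, against 4.16, 3.83 and 3.94). Ptprc, the leukocyte antigen CD45, read 7.24, against 3.82, 3.58 and 3.58 in wild type. The list of 22 other homeostatic microglia genes holds Ptprc and so is not specific to microglia. Of these 22, 11 lay over 1 log2 unit above wild type, where 15.8% of all genes did. As far below lay 1, where 11.5% of all genes did. Lyz2 read 11.08, against 5.64, 5.67 and 5.62 in wild type. The part of these cell types in the values of the microglia genes was not tested. In this array the rod, nasal and Nxnl2 values go against the label. The brighter Nxnl2 probe set read 9.21 there, against 3.78 and 3.73 in KO1 and KO2. Its values are thus not a measure of Nxnl2 loss in retina, and effects of tissue and of genotype on them cannot be told apart.

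**Figure D4:**
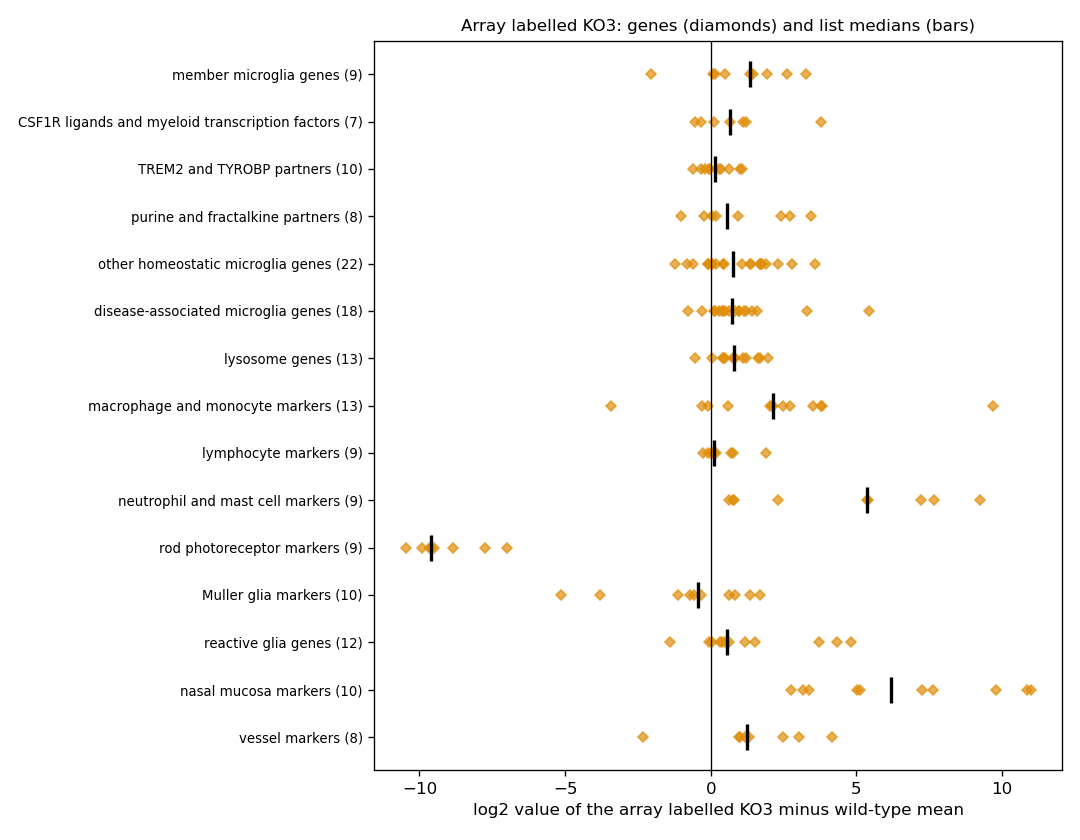
Log2 value of the array labelled KO3 minus the wild-type mean (horizontal axis) for each gene (diamonds) of the microglia genes and the other lists, with black bars at list medians and the number of measured genes after each name. The 9 microglia genes run from -2.04 (P2ry12) to 3.26 (Tmem119), and the rod markers lie at a median of -9.59.

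With all 6 arrays grouped by their labels, no microglia probe set passed either. By limma 0 of the 13 had an adjusted p under 0.05, where 0% of all probe sets did. Even the brighter Nxnl2 probe set, at -5.85 (SE 1.54), did not pass (limma adjusted p = 0.798), so the lack of calls here says little about the members. At an unadjusted p under 0.05 stood 0 of the 9 genes, where 0.726% of all genes did. The log2 change lay above 0 for 12 of the 13, where 46.5% of all probe sets did, and the median was 0.48 over the 8 genes other than Aif1, where all genes had one of 0.00. With Aif1, which was at background in wild type and is the middle gene of the 9, it was 0.60. Tyrobp had the largest change, with 6.41, 6.01 and 8.48 in the arrays labelled knockout, against 5.91, 5.82 and 5.85 in wild type (1.11, SE 0.65, 95% interval -0.52 to 2.73, limma adjusted p = 0.798). It was the only member whose groups did not overlap, and 3.79% of all probe sets were higher in all 3 arrays labelled knockout than in every wild-type array. Tmem119 stood at 1.01 (SE 0.96), Cd68 at 0.78 (SE 0.50) and P2ry12 at -0.63 (SE 0.61), none of which passed (limma adjusted p = 0.798 each). Cx3cr1 and Trem2 had the narrowest intervals, -0.14 to 0.42 and -0.14 to 0.39 for their brighter probe sets. Without the array labelled KO3 the changes of Tmem119 and P2ry12 took the opposite sign, -0.12 and 0.08, so their 6-array direction is that of 1 array.

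The genes whose pattern was most like the mean of the 9 members were sought by the root mean square difference of the log2 deviations from the wild-type mean over the 6 arrays, among 9094 genes above the median level. Among the 5 nearest were Phkb, a subunit of phosphorylase kinase (0.054), Wee1, a kinase of the cell cycle (0.072), Mospd2 (0.073) and Nnt, the mitochondrial transhydrogenase (0.074). The member mean lay at 0.33 in KO1, 0.00 in KO2 and 1.04 in the array labelled KO3, and Phkb lay at 0.22, 0.00 and 0.98 in the same arrays. In the member mean and in all 5 genes, the largest deviation was in the array labelled KO3. How much each array adds to the root mean square difference was not computed. The members ran from -2.04 (P2ry12) to 3.26 (Tmem119) in the array labelled KO3, so their mean is not a pattern that they share.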

How the data were processed

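The authors deposited log2 values of 6 arrays. RMA is the tool named in the submitters' processing notes; it adjusts for background, equalises the arrays and gives 1 value per probe set. Its software, version and chip definition are not stated there. Array medians ran from 5.77 to 5.80, so equalised arrays hide any difference in total RNA. The value table used here holds no detection calls, and precision is limited by how few arrays there are.

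Of 45101 probe sets, 64 controls were dropped. Annotation gave 1 gene to 34945, several to 932 and none to 9160. Each of 18193 genes was taken at its brightest probe set, and 18031 matched RefSeq (GRCm38.p6) by Entrez identifier. Limma 3.58.1 (R 4.3.3; lmFit and eBayes) compared knockout with wild type, two-sided, with Benjamini-Hochberg adjustment over all probe sets or all genes and a threshold of 0.05, after testing on simulated data. The simulated arrays held none as unlike the rest as the array labelled KO3. Figures used matplotlib 3.10.9.

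The members, lists and tests were chosen with earlier results of these data known. Named genes are every member probe set, Nxnl2, per list up to 4 genes with the smallest p and 3 with the largest difference in the array labelled KO3, and the 5 genes of most similar pattern; only some are printed, and 1 of those 5 is not reported here. Genes named as at background, and the 3 promoters shown, were picked after their values were seen. Alternatives tried were a trended robust variance, array weights, median centring, renewed quantile normalization, dropping probe sets under the 40th percentile, a replicate block, leaving out each array, the mean or most variable probe set and, added after seeing the data, medians without the member gene at background.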

Additional observations from a re-analysis of the deposited data

How the results depend on the processing

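Under every alternative run, 0 of the member probe sets passed in either comparison. With an array left out, 11 to 12 of the 13 had a log2 change above 0 in the 6 arrays and 9 to 13 in the 5. The 9 came without KO1. Array quality weights in the 6 arrays gave 10. The median log2 change of the 9 genes in the 6 arrays (0.60) was 0.14 with array quality weights, 0.50 with quantile normalization applied again, 0.47 with the mean of all probe sets of a gene, 0.48 over the 4 genes left without dim probe sets, 0.48 over the 8 genes other than Aif1, and 0.17 to 0.87 with an array left out. In the 5 arrays (0.17) it was 0.19 over the 8 genes other than Aif1, 0.26 over the 4 genes left without dim probe sets and 0.062 to 0.28 with an array left out. With array quality weights in the 6 arrays, Tmem119 (-0.16) and the dimmest Csf1r probe set (-0.035) changed sign. With an array left out of the 6, signs changed for the dimmer Cx3cr1 probe set (-0.064 to 0.21), the dimmest Csf1r (-0.022 to 0.44), P2ry12 (-1.07 to 0.080) and Tmem119 (-0.12 to 1.63). With an array left out of the 5, they changed for P2ry12 (-0.097 to 0.26), Ctss (-0.19 to 0.65), Tmem119 (-0.25 to 2.0e-04) and the dimmer Csf1r probe sets (-0.0060 to 0.12 and -0.090 to 0.047). With an array left out, 0 to 2 of the 13 probe sets in the 6 arrays and 0 to 3 in the 5 had an unadjusted p under 0.05. What moved these values was not tested. Same-numbered deviations from the group means had correlations of -0.06, -0.03 and -0.10 in the 6 arrays, where the array labelled KO3 enters the knockout mean. In the 5 arrays they were -0.07 and 0.15, and differing numbers gave -0.19 to 0.19. These values do not settle whether the samples were paired. With a replicate block the medians were 0.60 in the 6 arrays and 0.15 in the 5, with no call. Signal near background limits Aif1 and the dimmer Cx3cr1 and Trem2 probe sets. The 4 genes left by the gene-level cut at the 40th percentile were Csf1r, Ctss, Tyrobp and Trem2. Cx3cr1, P2ry12, Tmem119 and Cd68 were dropped with Aif1, though their brightest probe sets lay above the background mark in wild type.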
